A study of Mus musculus with 4 samples.

Results

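The expression of 10 imprinted growth-control genes, H19, Dlk1, Meg3, Peg3, Mest, Cdkn1c, Plagl1, Grb10, Phlda2 and Peg10, was examined in fetal livers from HFD-fed dams and CD-fed dams. Every non-control probe whose transcript belonged to 1 of these genes was taken, whatever its signal, which gave 18 of the 56605 non-control probes on the array and 10 of the 22911 genes with a named probe. Meg3 had 4 probes, while Dlk1, Grb10, Mest, Peg10 and Plagl1 had 2 each, and Cdkn1c, H19, Peg3 and Phlda2 had 1 each. C57BL/6J dams ate during gestation either the control diet (CD), with 4.3% of energy as fat, 19.2% as protein and 67.3% as carbohydrate, or the high-fat diet (HFD), with 60% as fat, 20% as protein and 20% as carbohydrate. Livers were taken from the fetuses at 14.5 days post coitum, and total RNA was measured on 2 single-colour arrays for each diet. How many fetuses or dams stood behind an array is not given in the sources used here, so the p-values below measure only the spread between arrays. The comparison addresses how the diet of the dam related to gene expression in the fetal liver.

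An imprinted gene is read mainly from 1 of its parental copies, because DNA methylation laid down in the egg or the sperm marks the copies differently. Many such genes act on the growth of the fetus and the placenta. As a broad pattern, genes read from the paternal copy tend to promote growth and genes read from the maternal copy tend to restrain it. The fetal liver, which also makes blood at this stage, expresses several of them strongly, and Dlk1 is a known surface marker of its hepatoblasts. Of the 10 genes, H19, Meg3, Cdkn1c, Grb10 and Phlda2 are known as maternally expressed and Dlk1, Peg3, Mest, Plagl1 and Peg10 as paternally expressed. The arrays measure total RNA and do not tell the parental copies apart.

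Promoter sequences from RefSeq (GRCm38.p6) matched 7 of the 10 genes and are shown for 3 of them, with every CpG, the dinucleotide that carries DNA methylation, in capitals. Phlda2 is shown because it had the largest diet difference of the 18 probes, and Mest and Plagl1 because their promoters hold the motif TGCCGC, which ZFP57 is known to bind when methylated in order to keep imprints. Each window is the 250 bases before the start of transcription, written 5′ to 3′ on the strand of the gene, at chr7:143502525-143502774 on the minus strand for Phlda2, chr6:30737800-30738049 on the plus strand for Mest and chr10:13090582-13090831 on the plus strand for Plagl1.
Phlda2: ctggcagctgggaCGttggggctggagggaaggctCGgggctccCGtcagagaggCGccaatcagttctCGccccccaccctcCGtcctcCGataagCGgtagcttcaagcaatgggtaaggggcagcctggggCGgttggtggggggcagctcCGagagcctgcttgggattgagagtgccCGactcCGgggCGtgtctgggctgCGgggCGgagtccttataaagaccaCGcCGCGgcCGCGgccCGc
Mest: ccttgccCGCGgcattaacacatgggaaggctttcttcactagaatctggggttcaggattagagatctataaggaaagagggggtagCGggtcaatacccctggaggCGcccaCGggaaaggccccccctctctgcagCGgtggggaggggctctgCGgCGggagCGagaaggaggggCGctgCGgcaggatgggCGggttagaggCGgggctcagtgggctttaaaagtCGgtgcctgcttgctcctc
Plagl1: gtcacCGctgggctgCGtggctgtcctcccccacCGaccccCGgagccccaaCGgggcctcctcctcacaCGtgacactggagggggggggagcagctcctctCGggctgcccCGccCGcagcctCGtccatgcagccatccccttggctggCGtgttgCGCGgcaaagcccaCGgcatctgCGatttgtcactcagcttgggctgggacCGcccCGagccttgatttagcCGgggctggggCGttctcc
The Phlda2 window held 21 CpGs, a number reached by 16.3% of the 32851 promoters in the table, and held no TGCCGC. The Plagl1 window held 19 CpGs and TGCCGC in 1 place, counting both strands, on which the motif reads TGCCGC or GCGGCA. The Mest window held 14 CpGs and the motif in 2 places. Across the 11 promoters listed for the 7 genes, 4 held the motif, namely 2 overlapping windows of Mest, 1 of Plagl1 and 1 of Meg3, against 8.7% of all promoters. The median number of CpGs was 10 in the 11 promoters and 6 in all. These are descriptions of the reference sequence, and methylation was not measured.

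A level below is a probe's background-subtracted intensity on a log2 scale, set relative to the array's 75th percentile, so that 0 is the brightness of the probe at that percentile. Levels are compared between arrays for 1 probe, not between probes. The 75th percentile lay at intensities of 1072 and 704 on CD replicates 1 and 2 and 969 and 908 on HFD replicates 1 and 2, and 63.7% to 68.6% of probes were well above background. All 4 arrays were on 1 slide and in 1 scan. Although all 4 samples are labelled female, replicate 1 of each diet had Y-linked transcripts, with Eif2s3y at 1.45 (CD) and 1.84 (HFD), and replicate 2 of each diet had Xist, at -0.65 (CD) and -0.74 (HFD). Eif2s3y was not well above background on either replicate 2, nor Xist on either replicate 1. The replicate numbers therefore split the arrays by sex-linked transcripts, and diet differences within each number are given below. The hepatoblast genes Alb, Afp and Serpina1a were at 8.14 to 9.06 on all 4 arrays, and the erythroid gene Hba-a1 at 9.07 to 9.66.

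All 18 probes were well above background on all 4 arrays, none of their spots was flagged or saturated, and all passed the filters and were tested. None of the 18 passed both cutoffs, an unadjusted p of 0.05 by limma and a fold change of 2, which 0.769% of the 41332 tested probes passed (121 higher and 197 lower in HFD). Only Phlda2 had an unadjusted p under 0.05, 1 of 18 or 5.56%, against 3.34% of all tested probes. With p-values adjusted by Benjamini-Hochberg across the 41332 probes, 0% were called, and the smallest adjusted p of limma was 1.00. Log2 fold changes (HFD minus CD) ran from -0.36 for a probe of Mest to 0.47 for Phlda2, with standard errors of 0.16 to 0.30. Their median was -0.10, and the median of their sizes was 0.14, against 0.026 and 0.15 over all tested probes. In this limma fit of all 4 arrays without covariates, the 95% intervals ran at most from -0.86 to 0.91. For each of the 18 probes a change of 2-fold in either direction lay outside its interval in this fit. Intervals under other settings are not given.

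**Figure D1:**
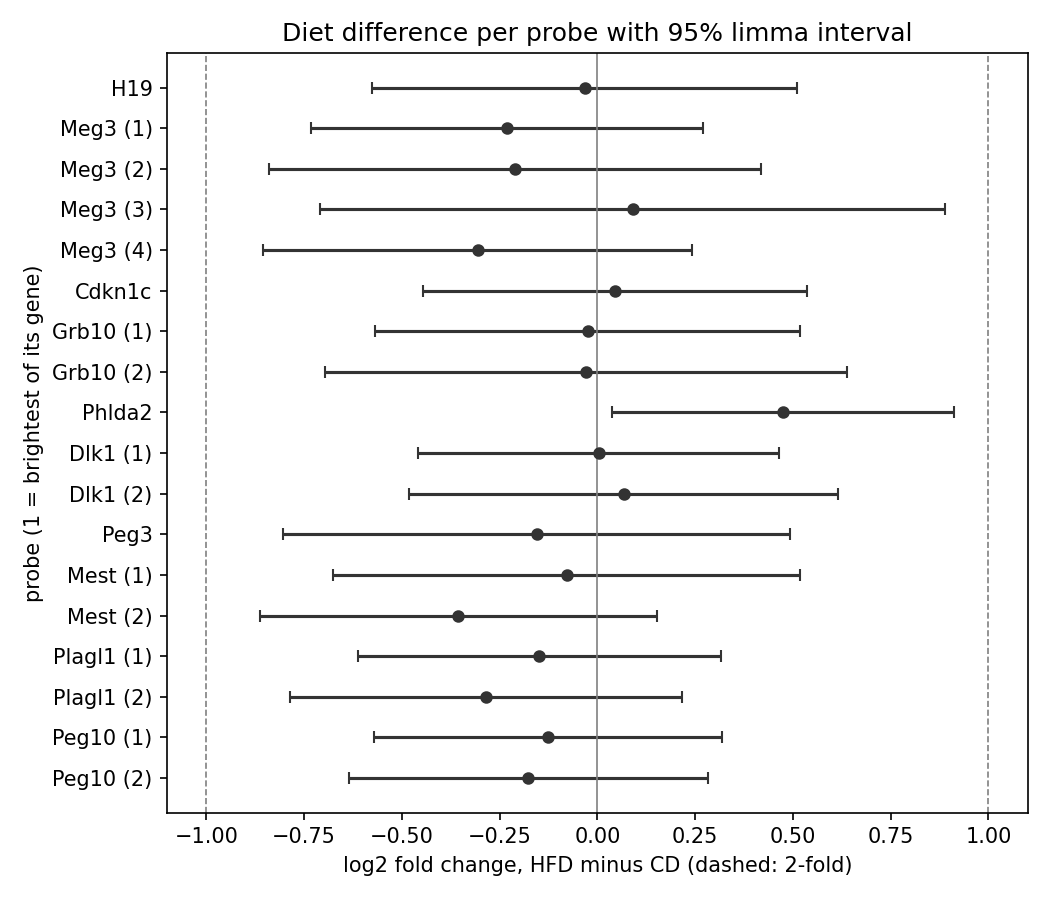
Log2 fold change (HFD minus CD, x axis) of each of the 18 probes (y axis; 1 marks the brightest probe of a gene) with its 95% limma interval from 2 CD and 2 HFD arrays. The interval of Phlda2, 0.037 to 0.91, lies above 0, those of the other 17 probes include 0, and all 18 lie inside the dashed lines at a 2-fold change.

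The 2 CD arrays and the 2 HFD arrays did not overlap for 7 of the 18 probes, or 38.9%, against 30.7% of all tested probes. In 1 probe, that of Phlda2, both HFD arrays were higher, a pattern that 19.5% of all tested probes had. In 6 probes, 2 of Meg3, 2 of Peg10, 1 of Mest and 1 of Plagl1, both HFD arrays were lower, which 11.1% of all tested probes had. Probes of 1 gene share its RNA and are not separate evidence. Without CD replicate 1, 7 member probes were higher and 8 lower without overlap, against 43.9% and 38.8% of all tested probes. Without CD replicate 2, 3 were higher and 15 lower, against 47.0% and 34.4%, and a single CD array is left outside the HFD arrays more often by construction. By the brightest probe of each gene, 1 of 10 genes (Phlda2) was higher and 2 of 10 (Meg3 and Peg10) were lower without overlap, against 23.1% and 10.1% of the 18192 tested genes. Of those genes 0.764% passed both cutoffs by the brightest probe. With 2 arrays against 2, an exact two-sided permutation test of 1 probe cannot go below p = 0.333.

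**Figure D2:**
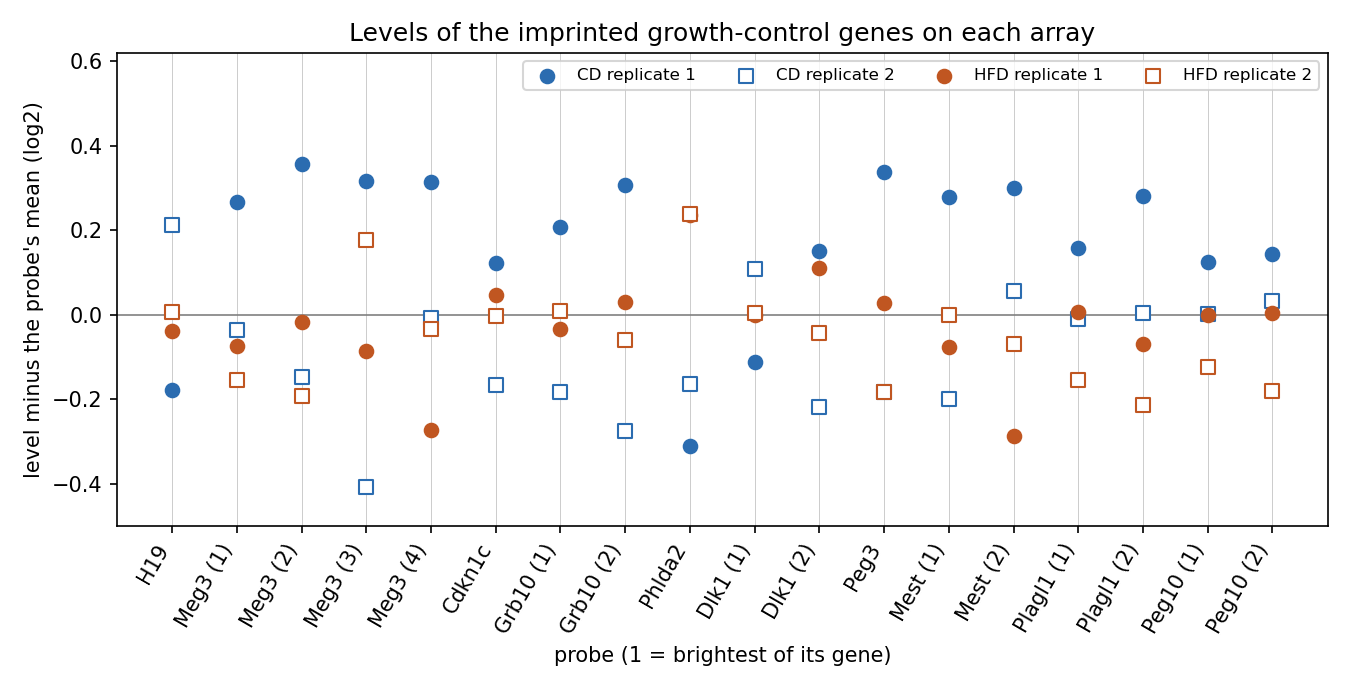
Level of each of the 18 probes on each array minus the mean of that probe over the 4 arrays (log2, y axis), with blue for CD, orange for HFD, filled circles for replicate 1 and open squares for replicate 2. Both HFD arrays lie above both CD arrays for Phlda2, and CD replicate 1 is the highest array for 15 of the 18 probes.

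Among the maternally expressed genes, Phlda2, which encodes a small pleckstrin homology domain protein known to restrain placental growth, differed most between the diets. Its levels were -0.94 and -0.79 on CD replicates 1 and 2, and -0.39 on both HFD arrays. Both HFD arrays were above both CD arrays, and the difference of 0.47 (SE 0.16, n = 2 arrays per diet) was larger than the spread of 0.15 between the CD arrays. On a linear scale this was 1.39-fold, with a 95% interval of 1.03 to 1.88 (limma, unadjusted p = 0.039, adjusted p = 1.00). Phlda2 was higher in HFD at both replicate numbers, by 0.55 at replicate 1 and 0.40 at replicate 2. Its log2 fold change stayed between 0.39 and 0.55 under the 16 other settings tried, and its unadjusted p was under 0.05 in 10 of them and was 0.28 without HFD replicate 1, 0.29 without HFD replicate 2 and 0.12 with a term for the replicate number, which splits the arrays by sex-linked transcripts.

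Cdkn1c, the cyclin-dependent kinase inhibitor p57, had levels of 7.48 and 7.19 in CD and 7.41 and 7.36 in HFD. The HFD arrays lay between the CD arrays, and the difference was 0.045 (SE 0.19; 95% interval -0.45 to 0.54), with the sign turned under quantile normalization, where it was -0.021. H19, a long noncoding RNA abundant in the fetal liver, had levels of 8.26 and 8.66 in CD and 8.41 and 8.45 in HFD. Its difference of -0.032 (SE 0.20; 95% interval -0.58 to 0.51) was smaller than the spread of 0.39 between the CD arrays.

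Grb10, an adaptor protein known to dampen signalling from the insulin and IGF1 receptors, had levels of 2.70 and 2.31 in CD and 2.46 and 2.50 in HFD by its brighter probe. Its difference was -0.025 (SE 0.20; 95% interval -0.57 to 0.52), and its other probe differed by -0.030. For both probes the HFD arrays lay between the CD arrays.

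Meg3, a long noncoding RNA read from the maternal copy of the cluster that holds Dlk1, was the member with the most probes. Its brightest probe (A_51_P455997) had levels of 5.81 and 5.50 in CD and 5.47 and 5.39 in HFD. Both HFD arrays were lower than both CD arrays, and the log2 fold change was -0.23 (SE 0.19; 95% interval -0.73 to 0.27; limma, unadjusted p = 0.28). The dimmest probe (A_65_P01584) was also lower without overlap, at -1.46 and -1.79 in CD and -2.05 and -1.81 in HFD, with a log2 fold change of -0.31 (SE 0.21). The other 2 probes overlapped between the diets, with log2 fold changes of -0.21 and 0.091. The probes of Meg3 thus did not share a direction, and the probe with the positive value (A_55_P2736010) had a spread of 0.73 between the CD arrays, the widest of the 18.

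Among the paternally expressed genes, Dlk1, a transmembrane protein of the Notch ligand family, gave values near 0 by both probes. Its brighter probe had levels of 7.80 and 8.02 in CD and 7.91 on both HFD arrays, with a difference of 0.0033 (SE 0.17; 95% interval -0.46 to 0.46). Its other probe had 5.72 and 5.35 in CD and 5.68 and 5.52 in HFD, a difference of 0.067 (SE 0.21). The brighter probe read higher on replicate 2 of CD and the other probe read lower there, so the probes of Dlk1 ordered the CD arrays in opposite ways.

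Peg3, a zinc finger protein, had levels of 2.42 and 1.90 in CD and 2.11 and 1.90 in HFD. Its difference of -0.16 (SE 0.24; 95% interval -0.80 to 0.49) came from replicate 1, where it was -0.31, while at replicate 2 it was -0.00094. Mest, which encodes a protein of the alpha/beta hydrolase fold, had levels of 4.12 and 3.64 in CD and 3.77 and 3.84 in HFD by its brighter probe, a difference of -0.079 (SE 0.23). Its other probe (A_55_P2151868), at 0.36 and 0.12 in CD and -0.23 and -0.0061 in HFD, was lower on both HFD arrays, with a log2 fold change of -0.36 (SE 0.19; 95% interval -0.86 to 0.15; limma, unadjusted p = 0.13). Both probes of Mest are assigned to the same transcript, and only the dimmer one kept the diets apart.

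Plagl1, a zinc finger transcription factor, and Peg10, a retrotransposon-derived gene needed for the placenta, gave small negative values at both replicate numbers by all 4 of their probes. The brighter probe of Plagl1 had levels of 6.87 and 6.71 in CD and 6.72 and 6.56 in HFD, a difference of -0.15 (SE 0.18; 95% interval -0.61 to 0.32). Its other probe, at -2.34 and -2.62 in CD and -2.69 and -2.84 in HFD, differed by -0.28 (SE 0.19) without overlap. The brighter probe of Peg10 had levels of -1.58 and -1.70 in CD and -1.70 and -1.83 in HFD, a difference of -0.13 (SE 0.17; 95% interval -0.57 to 0.32). HFD replicate 1 and CD replicate 2 were equal there to the digits given, so the lack of overlap was narrow. The other probe of Peg10 differed by -0.18 (SE 0.17), also without overlap.

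Split by parental copy and counted by the brightest probe, 2 of the 5 maternally expressed genes were above 0 (Phlda2 and Cdkn1c), and the median log2 fold change of these genes was -0.025. Of the 5 paternally expressed genes 1 was above 0 (Dlk1), with a median of -0.13. The median over all 18192 tested genes was 0.039. Apart from Phlda2, no gene of either group had an unadjusted p under 0.05. The diet difference was larger than the spread within both diets for 4 of the 18 probes, 1 each of Phlda2, Mest, Plagl1 and Peg10.

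At replicate 1 the 18 probes had a median HFD minus CD of -0.26, and 15 were lower in HFD. At replicate 2 the median was -0.035, and 11 were lower. The medians over all tested probes were 0.052 and 0.031. The sign was the same at both numbers for 10 of the 18 probes, 9 lower and 1 higher (Phlda2), and for 40.9% of all tested probes. Those 9 were 3 probes of Meg3, both of Plagl1, both of Peg10, that of Peg3 and the dimmer of Mest. Cdkn1c, Grb10 and the brighter probe of Mest were below 0 at replicate 1 and above 0 at replicate 2, and H19 and the brighter probe of Dlk1 the reverse.

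**Figure D3:**
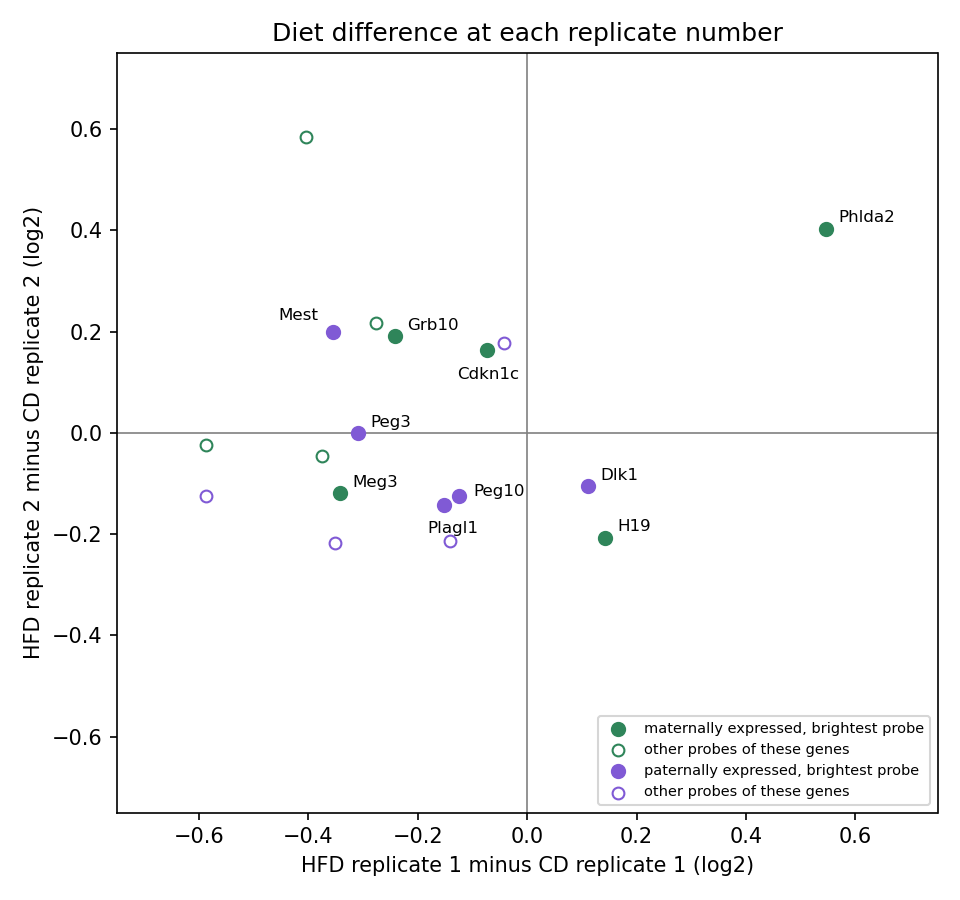
HFD minus CD (log2) at replicate 1 (x axis) and at replicate 2 (y axis) for the 18 probes, with green for maternally and purple for paternally expressed genes and filled points for the brightest probe of each gene. Phlda2, at 0.55 and 0.40, is the only probe above 0 on both axes, and 9 probes are below 0 on both.

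The spread between replicates was wider in CD than in HFD. The median size of the difference between replicates was 0.31 in CD and 0.13 in HFD over the 18 probes, and 0.35 and 0.12 over all tested probes. In CD, 15 of the 18 probes were lower on replicate 2 than on replicate 1. The median of replicate 1 minus replicate 2 was 0.30 over all 18 and -0.032 over all tested probes. The 3 that were higher there were those of H19 and Phlda2 and the brighter of Dlk1. Of the 12 mesenchyme and skeletal muscle markers, 9 were highest on CD replicate 1 and lowest on CD replicate 2. Only 6 of the 18 member probes had that full order. The summed level of these markers, in multiples of the 75th percentile, was 472, 228, 320 and 371 on CD replicates 1 and 2 and HFD replicates 1 and 2. Col1a2, the brightest of them, was at 7.52 and 6.54 in CD and 6.96 and 7.21 in HFD. The hepatoblast and hepatocyte markers ran the other way, with 9 of 12 highest on CD replicate 2 and lowest on CD replicate 1 and sums of 1573, 2430, 1897 and 1953. H19 and the brighter probe of Dlk1 had the order of the hepatoblast markers, and 6 other probes (the brighter of Mest, both of Grb10, that of Cdkn1c, 1 of Meg3 and the dimmer of Dlk1) that of the mesenchymal ones. Among all tested probes 21.2% and 18.0% had these orders. The part of the cell makeup in the values of the members was not tested, and in whole liver RNA fewer cells of a type cannot be told apart from less RNA per cell.

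**Figure D4:**
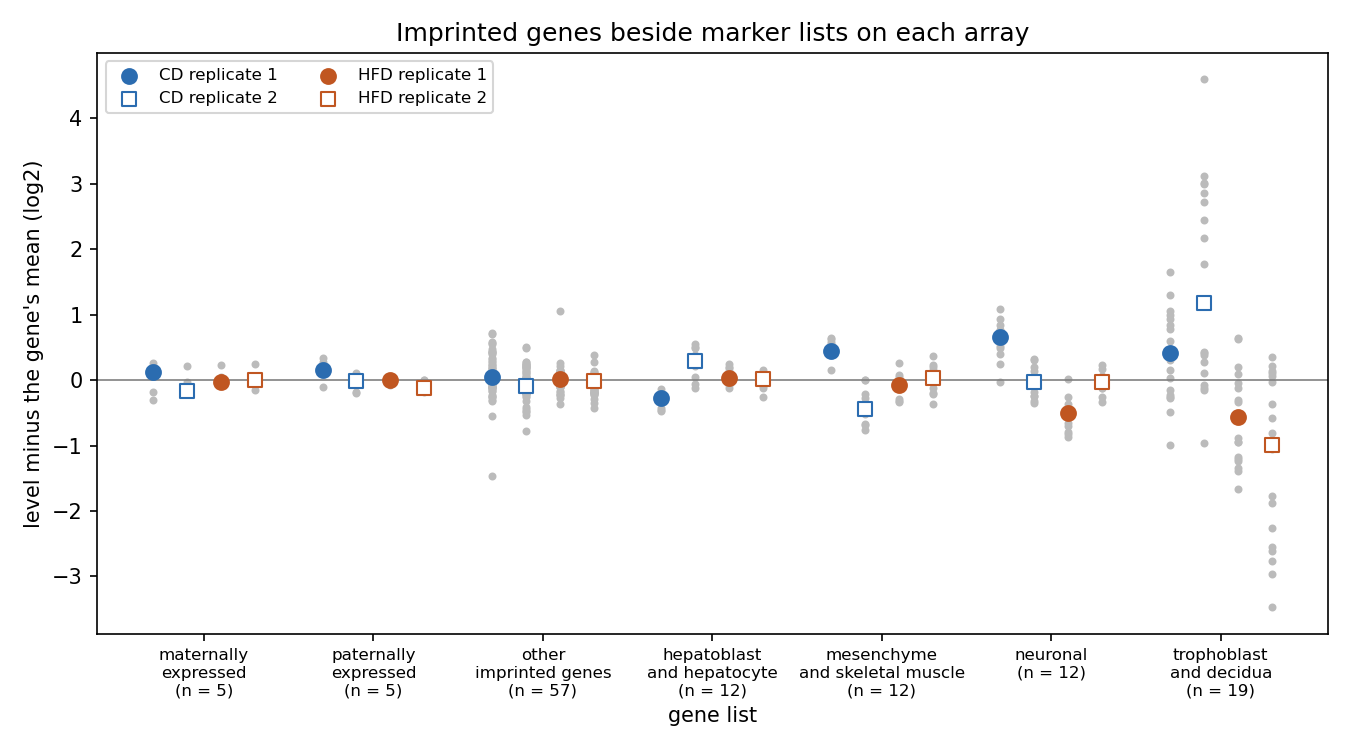
Level on each array minus the gene's mean over the 4 arrays (log2, y axis) for 7 gene lists (x axis, with the number of genes that have a probe), with grey points for genes by their brightest probe and large symbols for the list median. The mesenchymal median falls from 0.45 on CD replicate 1 to -0.44 on CD replicate 2 while the hepatoblast median goes from -0.28 to 0.29, and the member medians run from -0.16 to 0.16. Genes left out of the test are included.

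Markers of other tissues also differed between the diets and are given beside the members, since several imprinted genes are known to be strong in placenta, brain or mesenchyme. Of the 12 neuronal markers, 11 had negative log2 fold changes, 6 were lower in HFD without overlap, 3 had an unadjusted p under 0.05 and 0 passed both cutoffs, with a median of -0.61 and summed levels of 34.8 and 23.9 in CD and 17.6 and 24.8 in HFD. Among all 18192 tested genes, 10.1% were lower and 23.1% higher in HFD without overlap. Of these genes, 516 had an unadjusted p under 0.05 by limma, and 0.764% passed both cutoffs. Of the 19 trophoblast and decidua genes with a probe, 10 were lower in HFD and 0 higher without overlap, and the median log2 fold change over all 19 was -0.92. Only 9 of the 19 were tested, of which 7 had negative values and 1 passed both cutoffs, Psg17, at -3.05. The filters left out 5 for their CV, which were lower in HFD without overlap, namely Prl8a9 (-4.43), Psg21 (-4.00), Tpbpa (-3.91), Prl3b1 (-3.80) and Ctsm (-3.65), and 5 as dim, among them Ctsq, at least 2.80-fold lower in HFD, where it was not well above background. That bound sets the CD mean against the lowest signal well above background on each HFD array. The spongiotrophoblast gene Tpbpa was at 3.01 and 4.80 in CD and 1.00 and -1.01 in HFD. The 2 brightest genes of the list differed less, with Psg23 at 5.08 and 5.72 in CD and 4.97 and 5.44 in HFD, and Gcm1, at 5.65 and 4.28 in CD and 5.44 and 5.60 in HFD, having a log2 fold change of 0.55. The summed trophoblast level was 99.0 and 120.5 in CD and 80.3 and 95.2 in HFD, and without Psg23 and Gcm1 it was 15.0 and 48.5 in CD and 5.64 and 3.21 in HFD. The mesenchymal markers had a median of -0.088 with 0 of 12 past both cutoffs. Erythroid markers had a median of 0.15 and endothelial markers one of -0.080, with 0 of 9 and 0 of 7 past both cutoffs. Gonad and adrenal markers had a median of 0.79, with 2 of 9 past both cutoffs (Cyp11a1 and Nr5a1, both higher), and kidney markers a median of 0.32, with 0 of 8. The part of these cells in the values of the members, whether or not the diets overlapped, was not tested.

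Of 57 further imprinted genes with a probe, 55 were tested by their brightest probe, the other 2, Kcnk9 and Slc22a2, being too dim. Slc22a2, at -8.09 and -6.59 in CD and -5.57 and -6.24 in HFD, was higher in HFD without overlap. It was well above background on HFD replicate 1 only. None of the 55 passed both cutoffs or had an unadjusted p under 0.05 by limma for that probe, against 0.764% and 516 of the 18192 tested genes. Of the 55, 26 had positive and 29 negative log2 fold changes, and their median was -0.0080. The diets did not overlap for 7 higher and 9 lower genes of the 55, against 23.1% and 10.1% of the 18192 tested genes. The higher ones with the largest values were the amino acid transporter Slc38a4 (0.23), the ubiquitin ligase Ube3a (0.23), Jade1 (0.18), the cholesterol synthesis enzyme Dhcr7 (0.17) and the cation transporter Slc22a3 (0.14). The lower ones with the largest changes were Ndn (-0.43), the thyroid hormone deiodinase Dio3 (-0.40), Rasgrf1 (-0.31), Gab1 (-0.30) and the splicing factor Snrpn (-0.26). The dimmer probes of Snrpn, at 0.043 and 0.18, were above 0 and overlapped between the diets. Rasgrf1 was dim, at -5.15 and -5.04 in CD and -5.62 and -5.19 in HFD, and its other probe was too dim to be tested. The lowest levels well above background on the arrays were -6.02 to -5.56. For Ndn the gap rested on CD replicate 1, at 4.34, as CD replicate 2 was at 3.66 and the HFD arrays were at 3.56 and 3.59. Over all 89 tested probes of these genes, 1 had an unadjusted p under 0.05 by limma, against 3.34% of all tested probes. It was a dim probe of Gnas (A_52_P190394), with levels of -4.52 and -4.33 in CD and -5.39 and -4.85 in HFD. Its log2 fold change was -0.69 (SE 0.25, limma, unadjusted p = 0.043), while the brightest probe of Gnas was at -0.13.

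Genes next to the members on the chromosome, picked for their position after their values were seen, gave the following by the brightest probe of each. Slc22a18 and Nap1l4, which lie on either side of Phlda2 in the same imprinted cluster, had log2 fold changes of 0.089 (95% interval -0.55 to 0.72) and -0.13 (95% interval -0.70 to 0.43), and both overlapped between the diets. Kcnq1ot1, the antisense RNA of that cluster, lies near Cdkn1c and was at -0.078. Its other probes did not share a direction. They ran from -0.25, lower in HFD without overlap, to 0.64, higher without overlap but not well above background on any array. Igf2, the growth factor whose locus H19 shares, had levels of 5.83 and 6.02 in CD and 5.84 on both HFD arrays, a difference of -0.088 (95% interval -0.54 to 0.36). By this probe of Igf2, CD replicate 2 read higher than CD replicate 1, as for H19. The dimmer probe of Igf2, at 3.39 and 3.34 in CD and 3.25 and 3.28 in HFD, had the CD arrays in the other order. It was lower in HFD without overlap, with a log2 fold change of -0.10. In the cluster of Dlk1 and Meg3, the noncoding RNAs Rian and Mirg were at -0.079 and -0.0080, and Dio3, at its far end, at -0.40 as above. Copg2 beside Mest was at -0.088, Sgce beside Peg10 at 0.035, and Zim1 and Usp29 beside Peg3 at 0.099 and -0.46. None of these neighbours passed both cutoffs.

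Relatives of the members that are not imprinted were read from a list of 9 genes. All 9 were tested and 0 passed both cutoffs, against 0.764% of the 18192 tested genes. Without overlap, 2 of the 9 were higher and 1 was lower in HFD, against 23.1% and 10.1% of the tested genes. Cdkn1a and Cdkn1b, the kinase inhibitors p21 and p27, were at -0.21 and 0.25 and both without overlap, beside 0.045 for Cdkn1c. Phlda1 was at 0.22 and Phlda3 at -0.061, and both overlapped between the diets, with Phlda1 at 2.58 and 1.43 in CD. Plagl2 was at 0.25 without overlap, and Plag1 was at -0.069. Grb7, Grb14 and Dlk2 were between -0.072 and 0.029.

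Of 10 genes that maintain imprints, 9 were tested, with a median of 0.029, and 0 passed both cutoffs, against 0.764% of the 18192 tested genes. Zfp57, which binds methylated imprint control regions, was at -0.059 (95% interval -0.79 to 0.68), its partner Trim28 at -0.085 and the maintenance methyltransferase Dnmt1 at -0.15. Smchd1, a chromatin protein that silences clustered imprinted genes, was at 0.28, with 3.94 and 3.83 in CD and 4.20 and 4.12 in HFD, and Zfp445 was at 0.096. Both were higher in HFD without overlap, but neither had an unadjusted p under 0.05. They were the only 2 of the 9 higher without overlap, and 0 were lower, against 23.1% and 10.1% of all tested genes. Dppa3, which protects imprints in the early embryo, was too dim to be tested and was well above background on replicate 1 of each diet only. Its levels were -5.65 and -7.76 in CD and -2.33 and -5.68 in HFD, which overlapped between the diets. At replicate 1 it was higher in HFD by 3.32, a value from 1 array per diet.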

How the data were processed

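Gene expression was measured in fetal livers on 2 arrays per diet, with groups and replicate numbers taken from the labels. The authors read the slide with Agilent Feature Extraction 11.0.1.1 (submitters' processing notes) and deposited, per spot, a background-subtracted intensity with no scaling between arrays, the median brightness of spot and surroundings, and deposited scores of 0 or 1 that mark outlying, saturated and well-above-background spots. Their normalized signal table, deposited for 41471 probes, equals the intensity divided by 1 constant per array (1068 and 702 for CD, 967 and 906 for HFD) within 0.1% for 100% of probes with 1 spot.

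From the intensities, log2 was taken, spots of a probe were averaged without flagged outliers, and the 75th percentile of non-control probes was subtracted. Left out were 14980 probes that fell under the 20th percentile on at least 1 array and 284 with a linear CV over 50% under both diets. The other 41332 were compared between diets (HFD minus CD, no covariates) by limma 3.58.1, run in R 4.3.3. Steps were tested on simulated data. Probes were named through RefSeq transcripts of GRCm38.p6, which gave 32994 probes 1 symbol. The array was designed on mm9, so no coordinates are given apart from the RefSeq promoter windows, which are on GRCm38.p6.

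The members and lists were chosen with earlier results of these data known. Text names all members with every probe. Of the other imprinted genes, up to 5 each way with the largest non-overlapping change are named, and any gene of the relatives and maintenance lists could be. The marker lists were for hepatoblasts, erythroid, trophoblast, neuronal, mesenchymal, gonad and adrenal, kidney and endothelial cells. Up to the 3 brightest genes of each could be named, and no neuronal, kidney or endothelial gene was. The chromosomal neighbours, Psg17, Prl8a9, Psg21, Prl3b1, Ctsm, Ctsq, Cyp11a1, Nr5a1 and the Gnas probe were named after their values were seen. The number of arrays limits the precision. Alternatives were quantile and median scaling, normexp with an offset of 50 (on median brightness), the deposited table, a floor of 5, other filters, the methods' t-test, a replicate block, the mean over a gene's probes and leaving out each array.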

Additional observations from a re-analysis of the deposited data

How the results depend on the processing

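No member probe passed both cutoffs under any of the 16 settings tried, and the directions of Phlda2 (higher), Meg3, Plagl1 and Peg10 (lower, by the brightest probe) held in all 16. Phlda2 had unadjusted p-values over 0.05 with median scaling (0.072), with no filter on dim probes (0.064), with Welch's correction (0.097), with the replicate number as a block (0.122) and without HFD replicate 1 (0.283) or HFD replicate 2 (0.286). Cdkn1c turned to -0.021 under quantile normalization. Leaving out 1 array moved the log2 fold change of H19 between -0.23 and 0.16, Cdkn1c between -0.099 and 0.19, Grb10 between -0.22 and 0.17, Dlk1 between -0.11 and 0.11, Peg3 between -0.41 and 0.10 and Mest between -0.32 and 0.16, each with a sign turned by CD replicate 1 or CD replicate 2. Without 1 array, 1 to 7 member probes were higher without overlap (7 without CD replicate 1 and 3 without CD replicate 2, against 43.9% and 47.0% of all tested probes) and 6 to 15 lower (15 without CD replicate 2, against 34.4%). Leaving 1 array in a diet raises such counts by construction. Between 0 and 1 probes of the other imprinted genes were called lower (1 without CD replicate 2). Without CD replicate 2, 4 member probes had an unadjusted p under 0.05, against 14.8% of all tested probes, Meg3 (0.046) and Phlda2 (0.015) by the brightest probe among them. The spread then comes from the 2 HFD arrays alone, which lay closer together than the CD arrays, and the lone CD array is assumed to vary like them. The cause of the sign changes was not tested. The other 92 counts stayed within 1.5 times, and 159 of 166 member fold changes kept their direction and none passed both cutoffs.

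Over all probes, 121 were called higher and 197 lower, against 13 and 35 with normexp, 385 and 460 with no filter on dim probes, 41 and 56 with the methods' t-test, 21 and 25 with Welch's correction, 842 and 381 without CD replicate 1, 255 and 465 without CD replicate 2, 440 and 430 without HFD replicate 1, and 190 and 466 without HFD replicate 2. After adjustment, 1 probe was called with normexp and 6 without HFD replicate 1.

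The replicate numbers coincide with the sex-linked transcripts but are not stated to pair the samples, and the deviations of same-numbered arrays had a correlation of -0.0997. With the replicate number as a block, 177 probes were called higher and 258 lower, 0 of them member probes. With 2 arrays per diet, the half-widths of the member probes' 95% limma intervals ran from 0.44 to 0.80. Differences smaller than a probe's own half-width were not detectable.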
